A study of Homo sapiens with 15 samples.

Results

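The 10 genes described here encode receptor chains of the IL-6 family and of related cytokines: IL6R, IL6ST, LIFR, OSMR, IL10RA, IL10RB, IL21R, IL2RG, IL15RA and IL4R. They were chosen by name, as the genes of that list present in both deposited expression tables, and all 10 were found among the 20468 genes that each table holds. No measured value enters the rule, but the names were put together with earlier results of these data known.

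The libraries are bulk RNA sequencing of 2 established human myeloma lines, MM.1S and RPMI8226. Each line was grown for 48 h alone (MONO), in the upper insert of a transwell plate above a layer of the bone marrow stromal line HS5 (TSW), or in the lower chamber in contact with HS5 cells (CO). By the paper's methods the insert was placed over wells whose HS5 layer already carried myeloma cells, so TSW and CO cells shared wells and medium. MM.1S has 3 libraries and RPMI8226 has 2 libraries for each of the 3 conditions, 15 in all, prepared from live cells sorted as CD90- CD38+. The paper's methods state that a minimal level of HS5 cells remained among the sorted CO cells. The paper therefore left out genes high in HS5 and silent in myeloma cells. It also left out genes whose promoters were not open across its culture conditions. Neither filter was applied here. MONO against TSW asks what soluble factors from the lower chamber, with its stroma and myeloma cells, do, and TSW against CO what contact adds. The paper's methods give a trypsin step for the coculture conditions and name none for MONO, whose cells grew in wells without an insert. These differences in handling and set-up cannot be told apart from soluble factors in TSW against MONO.

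Class I and class II cytokine receptors signal as pairs or triplets of chains at the cell surface, which bring together JAK kinases that phosphorylate STAT factors. IL6R binds IL-6 and then needs gp130, the product of IL6ST, to signal, and gp130 is shared with LIF, oncostatin M and IL-11, while IL2RG, the common gamma chain, is shared by the receptors for IL-2, IL-4, IL-7, IL-9, IL-15 and IL-21. IL-6 made by bone marrow stroma is a long-known growth and survival factor for myeloma cells, and IL-10 and IL-21 are also known to act on them.

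Levels are given as RPKM, read pairs per kilobase of exon scaled to the depth of the library, computed back from the deposited log2 values. The libraries hold between 9008909 and 19050586 recovered read pairs, so that a single read pair on a transcript of 2 kilobases equals an RPKM between 0.0262 and 0.0555. Intervals and limits from counts cover counting error only. Each line has its own table, so a level set against one of the other line rests on separate normalisation.

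Both lines carried plasma cell markers in every condition. Of the 12 genes in that marker list, 11 or 12 had reads in each library, and JCHAIN was the most abundant throughout. The summed RPKM of the list was 6058, 5073 and 5312 in MM.1S MONO, 4132, 4010 and 3998 in TSW, and 3790, 3950 and 3632 in CO. In RPMI8226 it was 2507 and 2420 in MONO, 4475 and 4291 in TSW, and 4556 and 4475 in CO. The sum was thus highest in MONO in MM.1S and lowest in MONO in RPMI8226, with no overlap between MONO and the other conditions in either line. JCHAIN alone was at 4102, 3402 and 3754 in MM.1S MONO, 2134, 1966 and 2125 in TSW, and 2020, 2010 and 1924 in CO. The MM.1S difference rests on JCHAIN, and without it the MONO sums overlap those of TSW and CO. In RPMI8226 the sum stays lowest in MONO without JCHAIN. Of the list, 3 genes were called higher and 3 lower in MM.1S TSW than in MONO, 2 and 3 in CO, and 6 and 2 in both RPMI8226 comparisons with MONO, by the test defined further on. Of all tested genes, 6.48% were called higher and 4.16% lower in MM.1S TSW than in MONO, and 7.13% and 4.65% in CO. In RPMI8226 these shares were 14.5% and 17.9% in TSW and 16.4% and 22.9% in CO. The largest change among the called markers on the log2(RPKM + 1) scale was a fall of TNFRSF17, which encodes the receptor BCMA, by log2 −1.80 and −2.14 in MM.1S TSW and CO and by −3.50 and −3.83 in RPMI8226.

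Stromal markers were present in the CO libraries. Of 32 stromal markers, 12, 17 and 15 had reads in MM.1S MONO, 15, 13 and 14 in TSW, and 30, 30 and 31 in CO. Their summed RPKM was 27.3, 29.6 and 30.1 in MONO, 17.9, 18.5 and 18.3 in TSW, and 211, 224 and 193 in CO, with CAV1 the most abundant in MONO and TSW and MMP1 (44.5, 46.9 and 41.0) in CO. In RPMI8226, 15 and 15 had reads in MONO, 18 and 16 in TSW, and 30 and 30 in CO. FN1 is made by RPMI8226 itself, at an RPKM of 3990 and 4310 in MONO, and without it the sum was 54.0 and 54.8 in MONO, 61.0 and 63.1 in TSW, and 203 and 278 in CO. MMP1 and COL1A2 had no read in any MONO or TSW library of either line, and POSTN had none in any CO library. THY1, which encodes CD90, the marker sorted against, had 22, 18 and 15 read pairs in MM.1S CO and 3 and 5 in RPMI8226 CO. Over the group it had 3 in MONO and 1 in TSW of MM.1S, and 3 in MONO and 0 in TSW of RPMI8226. Its ratio of pooled read pairs per depth in RPMI8226 CO to MONO was 2.07 (95% interval 0.497 to 12.1). Of the 18 stromal markers that could be tested in MM.1S, 16 were called higher in CO than in MONO, 17 higher in CO than in TSW, and 1, CAV1, lower in TSW than in MONO. Of the 16 in RPMI8226, 13 were called higher and 1, FN1, lower in CO than in MONO, 10 higher in CO than in TSW, and 3 (CXCL12, CXCL8 and LOX) higher and 2 (CAV1 and FN1) lower in TSW than in MONO. Of all tested genes, 7.13% were called higher in MM.1S CO than in MONO and 0.374% higher in CO than in TSW. In MM.1S TSW against MONO 4.16% were called lower. In RPMI8226 16.4% were called higher and 22.9% lower in CO than in MONO. There 1.90% were called higher in CO than in TSW, and 14.5% higher and 17.9% lower in TSW than in MONO. The counts of stromal markers are set in part by the filter of the test. In MM.1S 15 of the 18, and in RPMI8226 10 of the 16, averaged below an RPKM of 1 in some condition and were tested because of their level in another. Of the 3 left in MM.1S, 1 was called higher in CO than in MONO and 2 higher in CO than in TSW, and of the 6 left in RPMI8226, 3 and 1. Of 10 markers of other blood cells, between 4 and 7 had reads in a library, CD68 was the most abundant, and CD3D and MS4A1 had no read in any library. CD68 was called higher in RPMI8226 TSW and CO than in MONO, and CD33 lower in CO. The part of stromal RNA in the results on CO cells was not tested, and in bulk libraries fewer cells of a type and less RNA per cell cannot be told apart.

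The MM.1S MONO library 1 stood apart from its replicates. It is the shallowest, with 9008909 read pairs, and its mean distance to the other MONO libraries, over the tested genes, was 43.8. That distance was 34.9 for MONO 2 and 35 for MONO 3, both of which include the distance to MONO 1. It ran from 15.6 to 17.4 in TSW and from 19.5 to 21.5 in CO, so each MONO library lay further from its replicates. The values of IL6ST and OSMR are given with and without MONO 1.

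The conditions of a line were compared with limma on log2(RPKM + 1), over the 10153 genes of MM.1S and the 10319 of RPMI8226 with a mean RPKM of at least 1. A gene was called when its adjusted p was under 0.05, over all genes tested in that comparison, and its fold change was over 1.5, which is 0.585 on the log2 scale. Of the members, 8 passed the filter in both lines, and these averaged an RPKM of 1 or more in every condition. LIFR and OSMR did not, in either line, and are described by their read pairs. The p-values measure the spread between libraries, and whether the replicates were independent cultures is not stated. TSW against MONO and CO against MONO share the MONO libraries, so their values are given side by side.

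In MM.1S, 1 of the 8 tested members was called in TSW against MONO, higher, where 6.48% of all tested genes were called higher and 4.16% lower. In CO against MONO 1 member was called, also higher, where 7.13% of genes were called higher and 4.65% lower. That member was IL15RA in both comparisons. At any fold change, an adjusted p under 0.05 was reached by 7 members in TSW, 3 higher and 4 lower, where 14.4% of genes were higher and 12.9% lower by that rule, and by 5 members in CO, 2 higher and 3 lower, where 16.2% and 15.0% were. In CO against TSW limma called 0 members, at any fold change too, and voom on the read pairs also called 0. There 1 member, IL6R, had an unadjusted p under 0.05, and of all genes 0.374% were called higher and 0.0394% lower, or 0.384% and 0.0492% at any fold change. The median log2 fold change of the 8 members was 0.01 in TSW against MONO and −0.04 in CO against MONO, and it was 0.01 over all tested genes in both. The number called in MM.1S depended on the processing. In TSW against MONO it was 4, with 2 higher and 2 lower, with a pseudocount of 0.1, quantile normalisation or voom. In CO against MONO it was 3 with a pseudocount of 0.1 or voom, and 0 with median-of-ratios scaling or quantile normalisation.

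In RPMI8226 more members were called, and each of them was higher. In TSW against MONO 5 of the 8 tested members were called higher and 0 lower, where 14.5% of genes were called higher and 17.9% lower. In CO against MONO 6 were called higher and 0 lower, where 16.4% of genes were called higher and 22.9% lower. At any fold change 6 members were higher in TSW, where 29.0% of genes were higher and 38.0% lower by that rule. In CO 7 were higher and 1, IL6R, was lower, where 30.3% and 41.7% of genes were. Over all genes the more frequent direction depended on the scaling: it was lower here, and higher with median-of-ratios scaling (1710 higher and 1538 lower in TSW, 1994 and 1925 in CO). In CO against TSW limma called 0 members, as did voom, while 2 members had an unadjusted p under 0.05 and the same 2 an adjusted p under 0.05 at any fold change, IL6ST higher and IL6R lower. Of all genes, 1.90% were called higher and 2.39% lower there, or 10.1% and 17.5% at any fold change. The median log2 fold change of the 8 members was 0.80 in TSW against MONO and 0.89 in CO against MONO, against −0.08 and −0.09 over all tested genes. None of these counts was tested as a property of the list.

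**Figure D1:**
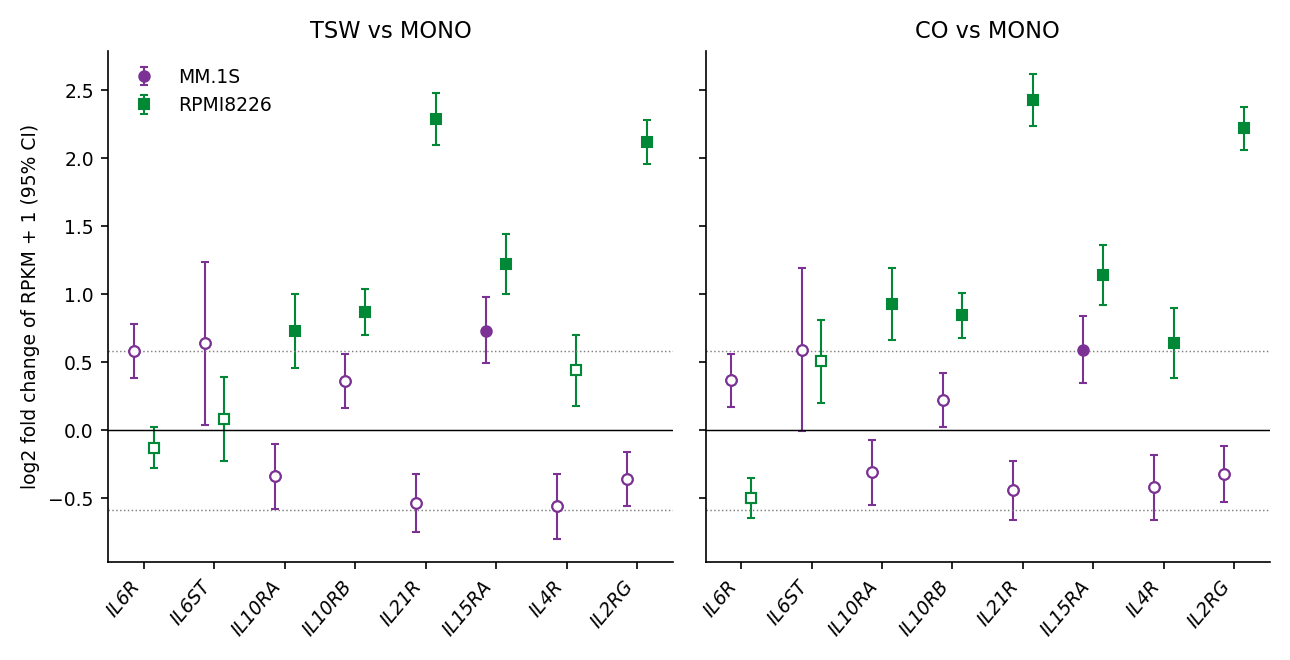
Log2 fold changes from limma, with 95% confidence intervals, of the 8 tested members in TSW against MONO and CO against MONO, with circles for MM.1S and squares for RPMI8226. Filled points were called, open points were not, the dotted lines mark the fold threshold of 0.585, and in RPMI8226 IL21R and IL2RG lie above 2 in both panels.

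By level, IL2RG was the most abundant member in all conditions of both lines. In MM.1S MONO it was followed by IL6R and IL10RB, then by IL6ST and IL10RA, whose replicate values overlapped, then by IL15RA and IL21R, which also overlapped, and by IL4R. MM.1S TSW and CO kept that order, without overlap between neighbours among those 8 members. In RPMI8226 MONO the order was IL2RG, IL6R, IL6ST, IL10RB, IL10RA, IL15RA, IL21R and IL4R. In RPMI8226 TSW IL10RB stood above IL6ST, and IL21R above IL10RA and IL15RA. In CO IL6ST and IL10RB, whose values overlapped, both stood above IL6R. LIFR and OSMR had the lowest means in every condition.

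**Figure D2:**
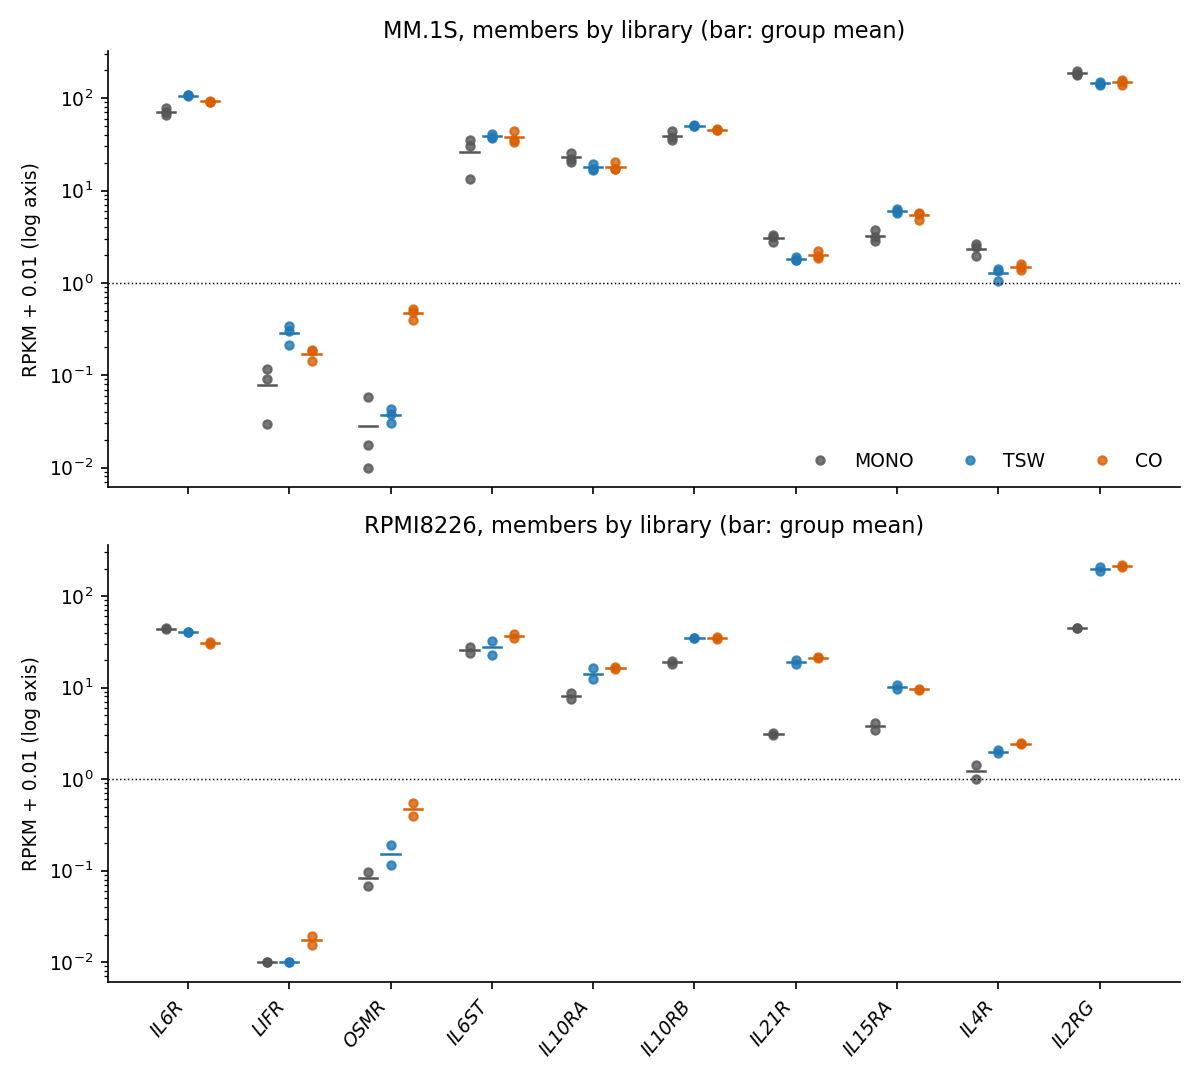
Level of each of the 10 members in every library, as RPKM plus 0.01 on a log axis, with MM.1S and RPMI8226 apart and the conditions by colour. The dotted line marks an RPKM of 1, and LIFR and OSMR lie below it in all 15 libraries.

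IL6R (Entrez gene 3570) binds IL-6 and has only a short signalling-inert tail. The gene lies on chromosome 1 from 154405343 to 154469450 (GRCh38.p14) and overlaps the antisense gene IL6R-AS1 and the pseudogene PSMD8P1. Whether reads were assigned by strand in counting is not given in the sources used here, so reads of an overlapping gene cannot be told apart from its own. In MM.1S its RPKM was 65.1, 78.7 and 70.3 in MONO, 107, 108 and 105 in TSW, and 91.6, 94.1 and 90.8 in CO. The groups did not overlap: every TSW library was above every CO library, and every CO library above every MONO library. The log2 fold change was 0.58 in TSW against MONO (95% confidence interval 0.38 to 0.78, adjusted p 8.81e-04 by limma), just under the fold threshold, and 0.37 in CO against MONO (adjusted p 0.0108). CO against TSW gave −0.21, with an unadjusted p of 0.0374 that did not pass the correction. IL6R was past the fold threshold in TSW against MONO at 0.65 without MONO 2, at 0.59 without TSW 3, and at 0.59 to 0.62 with a pseudocount of 0.1, quantile normalisation or voom.

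In RPMI8226 the level of IL6R was 44.3 and 43.3 in MONO, 40.1 and 40.0 in TSW, and 31.3 and 30.2 in CO. Here too the groups did not overlap, but MONO was the highest and CO the lowest. TSW against MONO differed by log2 −0.13 (adjusted p 0.124 by limma). CO against MONO differed by −0.50 (interval −0.65 to −0.35, adjusted p 7.12e-05) and CO against TSW by −0.37 (adjusted p 0.00358), both short of the fold threshold. The order of MONO against the other conditions was thus opposite in the lines, and CO lay below TSW in both.

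IL6ST (Entrez gene 3572) encodes gp130, the signalling chain shared by the IL-6 family. It lies on chromosome 5 from 55935095 to 55994963 and overlaps no other annotated gene. In MM.1S its RPKM was 13.4, 30.7 and 35.2 in MONO, 36.7, 38.2 and 41.0 in TSW, and 43.9, 33.8 and 35.0 in CO. All TSW libraries were above all MONO libraries, CO overlapped MONO, and MONO 1 was far below its replicates. The log2 fold change was 0.64 in TSW against MONO (interval 0.04 to 1.24, adjusted p 0.106 by limma) and 0.59 in CO against MONO (interval −0.01 to 1.19, adjusted p 0.120), so neither was called. These values rest on single MONO libraries. Without MONO 1 they were 0.23 and 0.18, not called, and without MONO 3 they were 0.89 and 0.85 and both were called. Over all alternatives the adjusted p ran from 0.0256 to 0.232 in TSW and from 0.0276 to 0.386 in CO.

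In RPMI8226 IL6ST stood at 27.5 and 23.8 in MONO, 32.1 and 22.9 in TSW, and 39.0 and 34.5 in CO. Both CO libraries were above the other 4, and TSW overlapped MONO. The log2 fold change was 0.08 in TSW against MONO (adjusted p 0.618 by limma), 0.51 in CO against MONO (interval 0.20 to 0.81, adjusted p 0.00737) and 0.42 in CO against TSW (adjusted p 0.0453). None was past the fold threshold. The CO against MONO value passed it at 0.61 without MONO 1, at 0.59 without CO 2, at 0.61 with median-of-ratios scaling and at 0.64 with quantile normalisation. The CO against TSW value passed it at 0.66 without TSW 1, and was 0.19 without TSW 2 and 0.34 without CO 1. A loess correction for GC content and length brought the values down to 0.13 in CO against MONO and 0.11 in CO against TSW. Over all alternatives the adjusted p ran from 1.68e-04 to 0.222 in the first and from 0.00255 to 0.446 in the second. TSW against MONO was 0.32 without TSW 2, 0.18 without MONO 1, −0.02 without MONO 2 and −0.15 without TSW 1. A group that loses 1 of its 2 libraries has a lone library, which is assumed to vary like the other groups.

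The ratio of IL6R to IL6ST within a library compares the binding chain with the signalling chain, per length. In MM.1S the ratio in MONO was 3.15 ± 1.52, that in TSW 2.77 ± 0.179 and that in CO 2.49 ± 0.363 (SD, n = 3), and in RPMI8226 they were 1.72 ± 0.146, 1.5 ± 0.353 and 0.838 ± 0.0510 (SD, n = 2). The MM.1S MONO mean rests on MONO 1, with a ratio of 4.87, and without it was 2.28, below both other conditions. RPMI8226 CO was the only condition of the 6 in which IL6ST mRNA was above IL6R mRNA, and the ratio is of mRNA, not of protein at the surface.

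**Figure D3:**
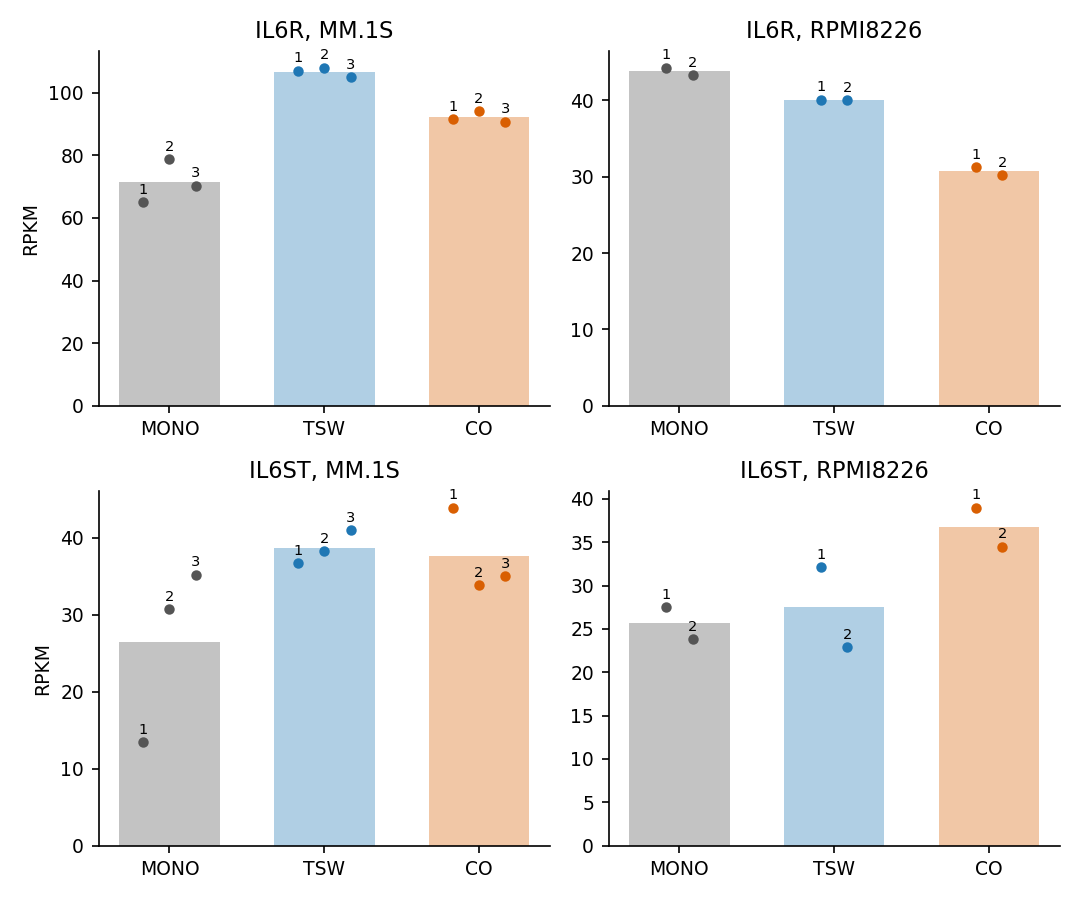
RPKM of IL6R and IL6ST in each condition of both lines, with bars for the mean from 0 and numbered points for the replicates. In MM.1S, IL6R is lowest in MONO and the point of MONO 1 for IL6ST, at 13.4, lies apart. In RPMI8226, IL6R is lowest and IL6ST highest in CO.

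The genes whose levels were most like those of IL6R across the 9 MM.1S libraries, by the Pearson correlation of log2(RPKM + 1), were CASP10 (0.989), LGALS17A (0.987) and NCK2 (0.987), and 402 tested genes had an r over 0.9. For IL6ST they were SEC24A (0.989), WIPF1 (0.989) and SP1 (0.988), with 823 genes over 0.9. Across the 6 RPMI8226 libraries CCNB2 and MRPL55 (each 0.996) were among the 3 genes most like IL6R, with 927 genes over 0.9, and CCNC (0.995), MED4 (0.995) and COG3 (0.990) most like IL6ST, with 325. The libraries of a line share their conditions and depths, and the correlations are a description of few points.

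LIFR (Entrez gene 3977) and OSMR (Entrez gene 9180) encode the chains that pair with gp130 to bind LIF and oncostatin M. They lie near each other on chromosome 5, LIFR from 38474668 to 38608403 and OSMR from 38846012 to 38945579. LIFR overlaps LIFR-AS1, LOC105374735 and MIR3650, and OSMR overlaps RICTOR. LIFR had 2, 23 and 12 read pairs in MM.1S MONO, 33, 57 and 43 in TSW, and 24, 31 and 27 in CO, which is an RPKM of at most 0.332. Each TSW and CO library had more than each MONO library, and TSW more than CO. The ratio of pooled read pairs per depth was 3.49 in TSW to MONO (95% interval 2.41 to 5.17), 2.02 in CO to MONO (1.36 to 3.07) and 0.580 in CO to TSW (0.435 to 0.770). In RPMI8226 LIFR had no read in MONO and TSW, where 3 read pairs over the group would be an RPKM of 0.00973 and 0.00728, and 1 and 2 read pairs in CO.

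OSMR had 3, 1 and 0 read pairs in MM.1S MONO, 2, 3 and 3 in TSW, and 43, 55 and 45 in CO. The CO libraries were far above the others, at an RPKM of 0.384, 0.516 and 0.468, and MONO and TSW overlapped. The ratio was 32.6 in CO to MONO (12.5 to 121), 16.8 in CO to TSW (8.31 to 39.7) and 1.94 in TSW to MONO (0.520 to 8.81). MONO 1 holds 3 of the 4 MONO read pairs, and without it the ratios to MONO were 102 (18.0 to 4060) in CO and 6.07 (0.814 to 269) in TSW. In RPMI8226 OSMR had 5 and 9 read pairs in MONO, 23 and 13 in TSW, and 44 and 71 in CO. The groups did not overlap, and the RPKM in CO was 0.388 and 0.544. The ratio was 6.38 in CO to MONO (3.65 to 12.0), 3.32 in CO to TSW (2.26 to 4.97) and 1.92 in TSW to MONO (1.01 to 3.86). By read pairs OSMR was thus higher in CO than in TSW in both lines, and the CO libraries that hold it also hold the stromal markers given above, whose part in it was not tested.

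In a limma fit without the filter on low levels, OSMR in MM.1S gave log2 0.52 in CO against MONO (adjusted p 2.62e-05), 0.50 in CO against TSW (adjusted p 5.89e-05) and 0.01 in TSW against MONO (adjusted p 0.878). In RPMI8226 it gave 0.45 (adjusted p 0.00228), 0.36 (adjusted p 0.0260) and 0.09 (adjusted p 0.317). LIFR in MM.1S gave 0.25 in TSW against MONO (adjusted p 0.00583), 0.12 in CO against MONO (adjusted p 0.0865) and −0.13 in CO against TSW (adjusted p 0.331). No value was past the fold threshold, and on a scale that adds 1 to the RPKM such low levels can give only small log2 differences.

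**Figure D4:**
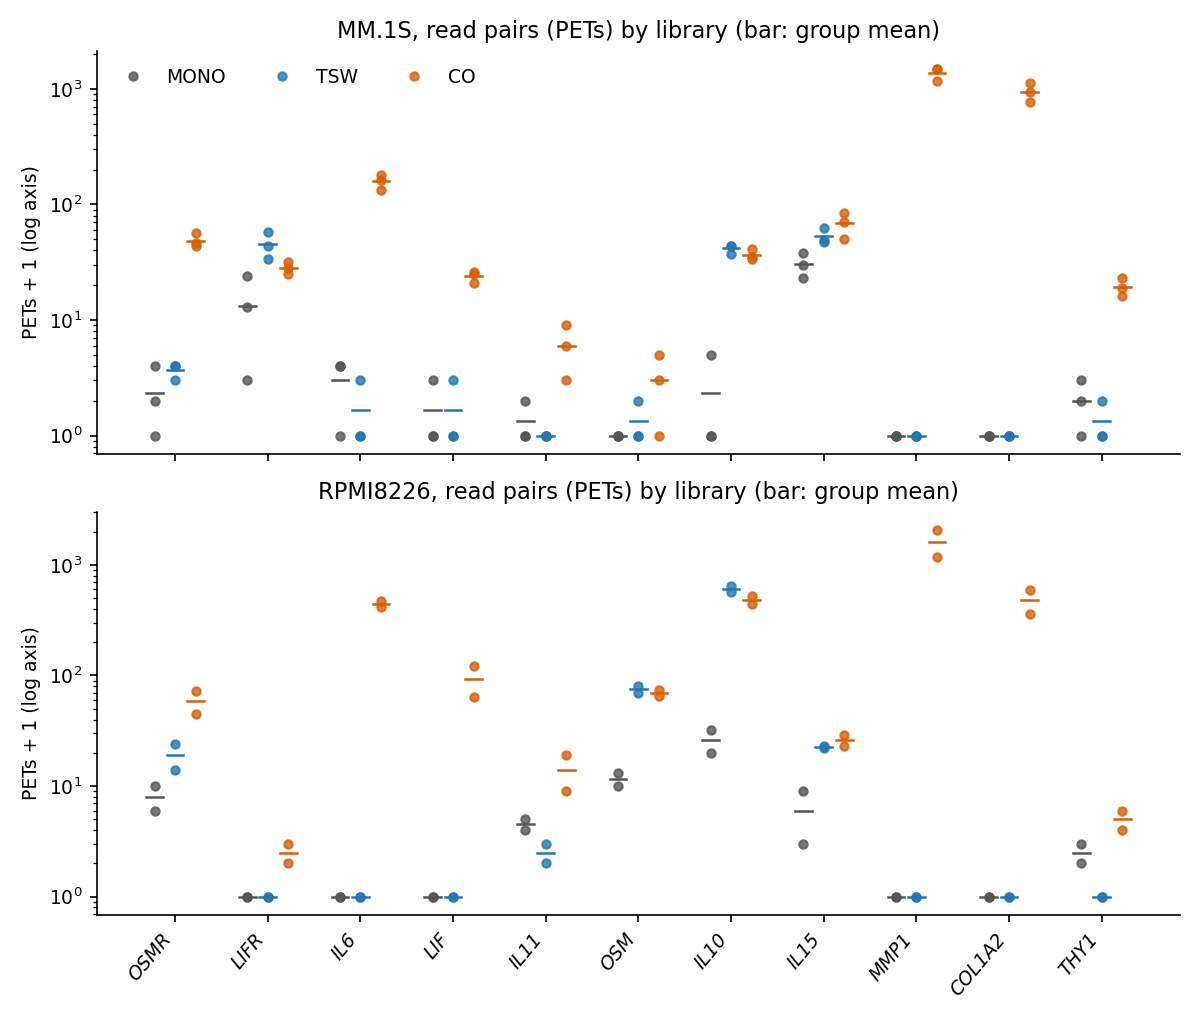
Read pairs plus 1, on a log axis, for LIFR, OSMR, ligands of the receptors and 3 stromal markers in each library of both lines, not scaled to depth, with short bars at the group means. OSMR, IL6, LIF, MMP1 and COL1A2 are highest in the CO libraries, while IL10 is high in TSW and CO alike.

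IL10RA (Entrez gene 3587) and IL10RB (Entrez gene 3588) encode the ligand-binding chain and the accessory chain of the IL-10 receptor, and IL10RB also serves other class II receptors. IL10RA lies on chromosome 11 from 117986394 to 118003037 and IL10RB on chromosome 21 from 33266367 to 33310182, where the read-through gene IFNAR2-IL10RB overlaps it. In MM.1S the RPKM of IL10RA was 20.6, 25.7 and 22.1 in MONO, 19.4, 16.8 and 17.2 in TSW, and 17.2, 20.2 and 17.1 in CO. Each TSW and CO library was below each MONO library, narrowly for CO. IL10RB was at 43.8, 38.2 and 35.6 in MONO, 49.8, 51.5 and 50.2 in TSW, and 45.2, 46.8 and 45.2 in CO, and each TSW and CO library was above each MONO library. The log2 fold change of IL10RA was −0.34 in TSW against MONO (adjusted p 0.0422 by limma) and −0.31 in CO against MONO (adjusted p 0.0516). Leaving out any of 7 libraries, MONO 2, MONO 3, TSW 1, TSW 2, TSW 3, CO 1 or CO 3, took the first of these to an adjusted p between 0.0510 and 0.148. It was also over 0.05 without the expression filter (0.0592), with only the 2 conditions compared (0.0731) and with the replicate block (0.0536), in a range of 0.0104 to 0.148 over all alternatives. The second was under 0.05 without MONO 1 (0.0140) or CO 2 (0.0396), and with median-of-ratios scaling (0.0357), quantile normalisation (0.0381), voom (0.0496) or the loess correction (0.0479), in a range of 0.0140 to 0.161. For IL10RB it was 0.36 in TSW (adjusted p 0.0134, and 0.0606 without TSW 2) and 0.22 in CO (adjusted p 0.0806, 0.00571 without MONO 1 and 0.0178 with quantile normalisation, in a range of 0.00571 to 0.194). None of these was called.

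In RPMI8226 IL10RA was at 7.56 and 8.72 in MONO, 12.3 and 16.2 in TSW, and 15.8 and 16.8 in CO. IL10RB was at 19.7 and 17.9 in MONO, 35.2 and 35.1 in TSW, and 33.8 and 35.4 in CO. For both genes every TSW and CO library was above every MONO library, and TSW overlapped CO. IL10RA rose by log2 0.73 in TSW (adjusted p 3.47e-04 by limma) and 0.93 in CO (adjusted p 5.16e-05), and the TSW value was 0.55, no longer called, without TSW 2. IL10RB rose by 0.87 in TSW (adjusted p 3.41e-06) and 0.85 in CO (adjusted p 2.95e-06). The ratio of IL10RA to IL10RB was 0.588 ± 0.105 in MM.1S MONO, 0.352 ± 0.0329 in TSW and 0.396 ± 0.0304 in CO (SD, n = 3), and in RPMI8226 it was 0.435, 0.405 and 0.472 on average, so that the chain that binds IL-10 had the lower mRNA level in each condition of both lines.

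IL2RG (Entrez gene 3561) encodes the common gamma chain and IL21R (Entrez gene 50615) the chain that pairs with it to bind IL-21. IL2RG lies on chromosome X from 71107404 to 71111577, overlapping no other gene, and IL21R on chromosome 16 from 27402174 to 27452042, overlapping IL21R-AS1 and LOC124903668. The promoter sequences of these genes, and of IL15RA described with them, are shown because the 3 were the members with the largest rises in RPMI8226. They are RefSeq sequences (GRCh38.p14) from 250 bases before to 50 after the start site, written 5′ to 3′ on the strand of the gene. IL21R is chr16:27427021-27427320 on the plus strand, IL2RG chrX:71111528-71111827 on the minus strand, and the IL15RA entries are chr10:5977997-5978296 and chr10:5977562-5977861 on the minus strand. Capitals mark the matches to the motifs named next.
IL21R: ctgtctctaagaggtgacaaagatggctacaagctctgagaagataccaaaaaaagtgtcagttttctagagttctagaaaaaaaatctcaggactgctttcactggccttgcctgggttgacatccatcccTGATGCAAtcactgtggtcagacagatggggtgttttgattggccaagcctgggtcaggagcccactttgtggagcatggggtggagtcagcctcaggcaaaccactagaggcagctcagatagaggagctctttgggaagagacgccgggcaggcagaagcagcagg
IL2RG: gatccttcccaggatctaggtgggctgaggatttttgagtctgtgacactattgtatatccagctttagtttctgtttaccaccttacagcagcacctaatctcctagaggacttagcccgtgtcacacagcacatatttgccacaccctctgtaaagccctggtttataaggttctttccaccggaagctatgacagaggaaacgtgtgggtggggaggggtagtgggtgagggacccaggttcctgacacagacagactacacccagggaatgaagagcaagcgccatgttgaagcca
IL15RA entry 1: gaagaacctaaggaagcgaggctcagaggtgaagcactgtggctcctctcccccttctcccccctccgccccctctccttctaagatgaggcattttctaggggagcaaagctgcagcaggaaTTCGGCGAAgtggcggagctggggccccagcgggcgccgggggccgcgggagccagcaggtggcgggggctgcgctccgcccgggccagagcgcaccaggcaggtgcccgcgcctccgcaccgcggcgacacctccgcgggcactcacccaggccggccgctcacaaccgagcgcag
IL15RA entry 2: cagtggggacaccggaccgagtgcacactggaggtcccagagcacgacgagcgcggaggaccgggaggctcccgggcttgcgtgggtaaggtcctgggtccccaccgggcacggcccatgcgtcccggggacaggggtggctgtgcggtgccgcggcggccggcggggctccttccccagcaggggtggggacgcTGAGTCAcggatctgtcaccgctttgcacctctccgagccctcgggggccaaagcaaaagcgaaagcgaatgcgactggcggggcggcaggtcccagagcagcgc

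The motifs were picked with the sequences in view and searched on both strands, and within any 1 promoter of a member no match overlapped another. They were TTCNNNGAA for a STAT dimer, TGANTCA for AP-1 and TGATGCAA for an ATF and CEBP pair. The RefSeq table held 15 promoters for the 10 members, with 3 for LIFR and 4 for IL15RA. TGATGCAA is in 0.866% of all 35116 promoters and, of the members, in IL21R, 118 bases before the start. TTCNNNGAA is in 7.66% of promoters and in 4 of the 15 member promoters, of IL10RB, IL15RA and LIFR, though not in every promoter of IL15RA and LIFR. In IL15RA entry 1 it reads TTCGGCGAA, 127 bases before the start. TGANTCA is in 7.71% of promoters and in 6 of the 15 member promoters, of IL6R, OSMR, IL10RA and IL15RA, though not in every promoter of IL15RA. In IL15RA entry 2 it reads TGAGTCA, 55 bases before the start. The window of IL15RA entry 4 overlaps that of entry 2, and its match, 123 bases before its own start, is the same site counted again. The IL2RG window holds none of the 3. A match is a description of letters, and no binding was measured in these libraries.

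In RPMI8226 the RPKM of IL21R was 3.20 and 3.03 in MONO, 18.2 and 20.1 in TSW, and 21.0 and 21.5 in CO. IL2RG was at 44.7 and 45.0 in MONO, 188 and 210 in TSW, and 217 and 207 in CO. For both genes the MONO libraries were far below all others. IL21R rose by log2 2.29 in TSW (adjusted p 8.90e-09 by limma) and 2.43 in CO (adjusted p 5.11e-09), ratios of mean RPKM of 6.15 and 6.81. IL2RG rose by 2.12 in TSW (adjusted p 5.14e-09) and 2.22 in CO (adjusted p 3.31e-09), ratios of 4.44 and 4.73. These were the largest changes among the 8 tested members in either line, and both genes were called in every alternative tried. IL21R mRNA was 0.0695 of IL2RG mRNA on average in MONO, 0.0963 in TSW and 0.10 in CO, so that the shared chain remained in large excess per length.

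In MM.1S both genes lay the other way. IL21R was at 3.31, 3.16 and 2.76 in MONO, 1.78, 1.90 and 1.75 in TSW, and 1.84, 1.93 and 2.23 in CO. IL2RG was at 180, 199 and 181 in MONO, 151, 144 and 139 in TSW, and 151, 157 and 138 in CO. Each TSW and CO library was below each MONO library for both genes. The log2 fold change of IL21R was −0.54 in TSW (adjusted p 0.00235 by limma) and −0.44 in CO (adjusted p 0.00642). It passed the fold threshold in TSW at −0.59 without MONO 3, and with a pseudocount of 0.1 or voom in both comparisons, at −0.60 to −0.76, and with quantile normalisation in TSW, at −0.61. IL2RG differed by −0.36 in TSW (adjusted p 0.0148) and −0.32 in CO (adjusted p 0.0224), and neither was called under any alternative that keeps the fold threshold. Its adjusted p was over 0.05 without TSW 2 (0.0607) or TSW 3 (0.0690) in the first comparison, and without MONO 2 (0.0663), CO 1 (0.0501) or CO 3 (0.0956) in the second, and with quantile normalisation its values were −0.24 (0.113) and −0.14 (0.322). The second was also over 0.05 with only the 2 conditions compared (0.0789) and with the loess correction (0.155). The ranges over all alternatives were 0.00611 to 0.113 and 0.0103 to 0.322. The MM.1S MONO level of IL21R was close to that of RPMI8226 MONO, while IL2RG was higher in MM.1S MONO, in tables normalised apart.

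IL15RA (Entrez gene 3601) encodes the high-affinity binding chain for IL-15, which presents the cytokine to receptors with the common gamma chain. It lies on chromosome 10 from 5948900 to 5978741 and overlaps LOC107984200. In MM.1S its RPKM was 3.11, 3.76 and 2.80 in MONO, 6.24, 6.03 and 5.71 in TSW, and 5.60, 5.76 and 4.74 in CO. In RPMI8226 it was 4.13 and 3.46 in MONO, 10.7 and 9.65 in TSW, and 9.62 and 9.45 in CO. All TSW and CO libraries were above all MONO libraries in both lines. IL15RA rose in MM.1S by log2 0.73 in TSW (interval 0.49 to 0.98, adjusted p 8.43e-04 by limma) and by 0.59 in CO (adjusted p 0.00296). The CO value lay at the threshold, and was not called without MONO 1 (0.58), MONO 3 (0.52), CO 1 (0.57) or CO 2 (0.55), or with median-of-ratios scaling (0.58) or quantile normalisation (0.51). In RPMI8226 it rose by 1.22 in TSW (adjusted p 2.17e-06) and 1.14 in CO (adjusted p 2.63e-06). IL15RA was the only one of the 8 tested members called in both lines, and its direction was the same in them.

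IL4R (Entrez gene 3566) encodes the chain that binds IL-4 and pairs with the common gamma chain or with IL13RA1. It lies on chromosome 16 from 27313756 to 27364778, beside IL21R. In MM.1S its RPKM was 2.45, 2.60 and 1.96 in MONO, 1.41, 1.05 and 1.32 in TSW, and 1.38, 1.47 and 1.61 in CO, with each TSW and CO library below each MONO library. The log2 fold change was −0.56 in TSW (adjusted p 0.00352 by limma) and −0.42 in CO (adjusted p 0.0145, and 0.0576 without CO 1). It passed the fold threshold in TSW without MONO 3 (−0.64) or TSW 1 (−0.61) and with quantile normalisation (−0.63), and in both comparisons with a pseudocount of 0.1 (−0.84 and −0.61) or voom (−0.90 and −0.65). In RPMI8226 it was at 1.43 and 0.994 in MONO, 1.90 and 2.05 in TSW, and 2.39 and 2.48 in CO, and the groups did not overlap. It rose by 0.64 in CO (adjusted p 5.64e-04), which was 0.50 and not called without MONO 2. TSW against MONO gave 0.44 (adjusted p 0.00722, and 0.0704 without MONO 2), past the threshold with a pseudocount of 0.1 (0.68) or voom (0.74).

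Set side by side, 5 of the 8 tested members, IL6R, IL10RA, IL21R, IL2RG and IL4R, lay in opposite directions in the lines in TSW against MONO, with no overlap between the replicates of the conditions in either line. The same 5 did so in CO against MONO. Among the 9397 genes tested in both lines 9.60% did so in TSW against MONO and 8.97% in CO against MONO. IL10RB and IL15RA lay in the same direction without overlap in both comparisons, as did 2630 and 2817 of those 9397 genes. The difference between the lines was not tested, since each has its own table.

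Most ligands of these receptors were below the filter of the test. Of 20 ligand genes, 1, IL15, could be tested in MM.1S, and 2 in RPMI8226, of which 1 was called higher in TSW against MONO, 2 in CO against MONO and 1 in CO against TSW. Those 2, IL6 and IL10, and IL15 in MM.1S averaged below an RPKM of 1 in some condition and were tested because of their level in another, so the counts are set in part by the filter. Of all tested genes in RPMI8226, 14.5%, 16.4% and 1.90% were called higher in these comparisons. IL6 had 3, 3 and 0 read pairs in MM.1S MONO, 0, 2 and 0 in TSW, and 162, 180 and 131 in CO. In RPMI8226 it had none in MONO and TSW and 417 and 466 in CO. IL-6 mRNA was thus found almost only in the CO libraries of both lines. The ratio in MM.1S was 72.0 in CO to MONO (95% interval 32.8 to 197) and 223 in CO to TSW (61.3 to 1843). The first was 113 (38.3 to 548) without MONO 1, and the second 148 without TSW 1 and at least 95.4 without TSW 2. In RPMI8226 IL6 was at least 229-fold higher in CO than in MONO and at least 306-fold higher than in TSW, against a floor of 3 read pairs over the group. LIF had 0, 2 and 0 read pairs in MM.1S MONO, 0, 0 and 2 in TSW, and 20, 24 and 25 in CO, and in RPMI8226 63 and 120 in CO against none elsewhere, at least 47.4-fold higher than in MONO and 63.4-fold higher than in TSW. With a library left out the RPMI8226 bounds fell to as little as 105 and 150 for IL6 and 21.7 and 31.2 for LIF. Both genes follow the stromal markers across conditions, and the share of HS5 RNA in them was not tested.

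IL10 had 0, 0 and 4 read pairs in MM.1S MONO, 36, 43 and 43 in TSW, and 40, 33 and 34 in CO, ratios to MONO of 29.6 (11.3 to 110) and 24.4 (9.26 to 91.3). They were 16.0 and 13.2 without MONO 2, and at least 26.8 and 22.1 without MONO 3, which holds all 4 MONO read pairs. In RPMI8226 its RPKM was 0.534 and 0.735 in MONO, 10.7 and 12.6 in TSW, and 9.59 and 9.75 in CO. All TSW and CO libraries were far above MONO in both lines, and the part of stromal RNA in this was not tested. IL10 rose in RPMI8226 by log2 2.95 in TSW (adjusted p 7.98e-09 by limma) and 2.71 in CO (adjusted p 1.12e-08). OSM, the gene of oncostatin M, had 9 and 12 read pairs in RPMI8226 MONO, 80 and 69 in TSW, and 64 and 73 in CO, with a ratio of 5.31 in TSW to MONO (3.35 to 8.83), and between 0 and 4 in the MM.1S libraries. IL15 had 22, 37 and 29 read pairs in MM.1S MONO, 48, 46 and 62 in TSW, and 69, 49 and 84 in CO, for log2 fold changes of 0.37 (adjusted p 0.0810 by limma) and 0.53 (adjusted p 0.0193), neither called, though voom called the second. In RPMI8226 it had 8 and 2, 22 and 21, and 22 and 28. IL11 had 1 read pair in MM.1S MONO over the group, none in TSW, and 8, 2 and 5 in CO, and in RPMI8226 3 and 4 in MONO, 2 and 1 in TSW, and 8 and 18 in CO. IL21 and IL4 had 0 or 1 in each library.

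Downstream of the receptors, JAK3 is the kinase that binds the common gamma chain. Its RPKM in MM.1S MONO was 4.41 ± 0.0550, with 22.3 ± 1.22 in TSW and 19.5 ± 0.314 in CO (SD, n = 3), a rise of log2 2.11 (adjusted p 6.07e-08 by limma) and 1.93 (adjusted p 4.83e-08). In RPMI8226, where IL2RG and IL21R rose, JAK3 had between 0 and 5 read pairs in each library. JAK1, which serves the receptors of all 10 members, had a mean RPKM of 25.5 in MONO, 31.9 in TSW and 34.7 in CO of RPMI8226, and in MM.1S it was 23.1, 50.5 and 47.1 in MONO and between 31.0 and 31.9 in TSW and CO. Here too MM.1S MONO 1 stood apart. JAK2 had a mean of 1.62, 2.85 and 3.83 in RPMI8226 MONO, TSW and CO, called in CO (0.88, adjusted p 4.32e-05), and of 2.17, 3.12 and 3.19 in MM.1S, not called. TYK2 had a mean of 11.2, 10.9 and 9.97 in MM.1S and of 17.5, 23.9 and 21.5 in RPMI8226.

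STAT3 is the main STAT factor of gp130 and of the IL-10 and IL-21 receptors. Its RPKM was 15.5 ± 0.562 in MM.1S MONO, 44.8 ± 1.06 in TSW and 41.3 ± 1.17 in CO, a rise of log2 1.47 (adjusted p 4.47e-07 by limma) and 1.35 (adjusted p 5.18e-07). In RPMI8226 the means were 17.8, 58.9 and 54.8, a rise of 1.68 (adjusted p 1.53e-08) and 1.57 (adjusted p 1.80e-08). All TSW and CO libraries were above all MONO libraries in both lines. SOCS3, a feedback inhibitor that binds gp130, had 4, 6 and 4 read pairs in MM.1S MONO, 2478, 2786 and 2252 in TSW, and 2890, 3020 and 2590 in CO. That is an RPKM of 0.129 ± 0.0287, 64.4 ± 2.26 and 68.6 ± 3.18, and log2 fold changes of 5.86 (adjusted p 7.50e-12) and 5.95 (adjusted p 6.35e-12). In RPMI8226 it was 1.56 ± 0.359, 52.4 ± 2.07 and 51.8 ± 1.86, with log2 fold changes of 4.39 and 4.37.

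Of 10 tested JAK and STAT genes in MM.1S, 5 were called higher in TSW and 4 in CO against MONO, and of 9 in RPMI8226, 4 and 5, with none called lower. Of all tested genes 6.48% and 7.13% were called higher in these comparisons in MM.1S and 14.5% and 16.4% in RPMI8226, and no test compares the lists of this and the next paragraphs with them. In MM.1S STAT4 rose by log2 1.45 in TSW and 1.21 in CO. In RPMI8226 STAT2 rose by 2.98 and 3.02, and STAT4 by 2.43 and 2.41. The list of feedback and target genes gave 7 of 19 called higher in MM.1S and 8 of 20 in RPMI8226, in TSW and in CO, with none called lower. At any fold change 1 gene of the JAK and STAT list was lower in both RPMI8226 comparisons, and 4 and 2 of the feedback list. SOCS3 is 1 of the 7 and was below an RPKM of 1 in MM.1S MONO, so that it was tested because of its level in TSW and CO. JUNB rose in MM.1S by 2.28 and 2.15, BCL3 by 1.83 and 1.63, and PIM2 by 1.32 and 1.06. In RPMI8226 JUNB rose by 2.93 and 2.94, BCL3 by 3.04 and 2.82, and MCL1 by 2.47 and 2.86. The median log2 fold change of the JAK and STAT list was 0.53 and 0.47 in MM.1S and 0.55 and 0.88 in RPMI8226, and of the feedback list 0.34 and 0.42 and then 0.32 and 0.37, beside medians over all tested genes of 0.01 and 0.01 in MM.1S and −0.08 and −0.09 in RPMI8226.

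Other receptor chains of the class I and class II families are given by list, beside the same shares and medians over all tested genes. Of 7 tested class I chains outside the members, 1, IL13RA1, was called in MM.1S, higher by log2 2.35 in TSW and 2.24 in CO. Of 8 in RPMI8226, 4 were called higher and 1 lower in TSW, and 3 higher and 0 lower in CO. There IL13RA1, the partner of IL4R in the receptor for IL-13, rose by 3.54 and 4.01, LEPR by 1.22 and 1.51, and PRLR by 0.96 and 1.53, and CSF2RB fell by 0.80 in TSW. Of 6 tested class II chains in MM.1S, IFNGR1 rose by 0.62 in both TSW and CO, and IFNLR1, which pairs with IL10RB, fell by 0.91 in TSW and 0.92 in CO. Of 5 in RPMI8226, 2 were called higher in TSW and 3 in CO, and 1 lower in each: IFNAR2 rose by 1.35 and 1.51, IFNGR1 by 1.03 and 1.12 and IFNAR1 by 0.64 in CO, and IFNLR1 fell by 1.91 and 1.86. IL13RA1 in both lines, and LEPR, PRLR and IFNLR1 in RPMI8226, averaged below an RPKM of 1 in some condition and were tested because of their level in another. Without them the only called class I chains were IL12RB1, higher, and CSF2RB, lower, both in RPMI8226 TSW. The medians of the class I list were 0.16 and 0.06 in MM.1S and 0.50 and 0.50 in RPMI8226, and of the class II list 0.01 and 0.07 and then 0.35 and 0.64.

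Sheddases release IL6R from the surface as a soluble receptor. Of 5 tested genes of that list, RHBDF2, a cofactor of ADAM17, rose in MM.1S TSW by log2 0.65 and in RPMI8226 by 1.66 in TSW and 1.59 in CO, and ERAP1 fell in RPMI8226 by 0.61 and 0.63. In MM.1S CO limma called 0 of the 5, with 3 at an unadjusted p under 0.05 and 1 called by voom, and RHBDF2 was short of the fold threshold there at 0.57 (adjusted p 0.00274 by limma). In CO against TSW limma called 0 genes of the JAK and STAT, feedback, class I, class II and sheddase lists in both lines. An unadjusted p under 0.05 was reached there by 1, 3, 1, 0 and 0 genes of these lists in MM.1S and by 1, 10, 4, 1 and 1 in RPMI8226. At any fold change the adjusted p was under 0.05 by limma for 0 genes of these lists in MM.1S, and in RPMI8226 for 0 JAK and STAT genes, 6 feedback genes (5 higher and 1 lower), 3 class I chains, IFNAR1 of class II and ADAM10 of the sheddases, these last 5 all higher. In RPMI8226 10.1% of all genes were higher and 17.5% lower by that rule. Of these lists voom called 1 gene in CO against TSW, the class I chain gene PRLR in RPMI8226.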

How the data were processed

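The authors aligned paired-end reads to hg38 with Subread, counted them per RefSeq gene with featureCounts and deposited the values of each line in its own table. The deposited unit is log2, as log2(RPKM + 1) plus 0.0001, although the tables are named RPKM. The offset was subtracted and read pairs were recovered from the values. Genes were matched by Entrez ID. The members and lists were chosen with earlier results of these data known.

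Each line was fitted with limma 3.58.1 in R 4.3.3, with 1 linear model for its 3 conditions, contrasts between them and moderated variances that follow the mean level. Genes entered when their RPKM averaged 1 or more over the line. Benjamini-Hochberg adjustment covered all genes tested in a comparison, and the call needed a fold change over 1.5 and an adjusted p under 0.05. Genes below the filter were compared by pooled read pairs, with exact 95% binomial intervals of the ratio. A group without reads was given a floor of 3 read pairs over the group.

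All members were named. From each other list the called genes were named if 4 or fewer in a comparison, otherwise the 4 with the largest log2 fold change among those without overlap, with the ligands, kinases, STAT3 and SOCS3 given by level and the 3 genes most like IL6R and IL6ST. Some genes that these rules name are not reported here. Alternatives were a pseudocount of 0.1, no filter, an RPKM minimum of 5, median-of-ratios and quantile scaling, voom, a fit on 2 conditions, a replicate block, no fold threshold, a loess correction (span 0.3) for GC content and length, and leaving out each library.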

Additional observations from a re-analysis of the deposited data

Results flagged for a closer look

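For 5 members, every TSW library of one line lay on one side of its MONO libraries and every TSW library of the other line on the opposite side, and the same 5 did so in CO, on the log2 scale of the fit. Among the 9397 genes tested in both lines, 9.60% lay so in TSW against MONO and 8.97% in CO against MONO. Both comparisons share their MONO libraries, so the CO values are not a separate repeat. The difference between the lines was not tested, and each line has its own table. In TSW against MONO, MM.1S and RPMI8226 gave 0.58 and −0.13 for IL6R, −0.34 and 0.73 for IL10RA, −0.54 and 2.29 for IL21R, −0.36 and 2.12 for IL2RG, and −0.56 and 0.44 for IL4R. In CO against MONO they gave 0.37 and −0.50 for IL6R, −0.31 and 0.93 for IL10RA, −0.44 and 2.43 for IL21R, −0.32 and 2.22 for IL2RG, and −0.42 and 0.64 for IL4R. Of these, IL10RA, IL21R and IL2RG were called in both RPMI8226 comparisons and IL4R in CO, and none of the 5 was called in MM.1S. IL6R was called in neither line, and its RPMI8226 value in TSW had an adjusted p of 0.124 by limma, beside a median of −0.08 over all genes tested. With median-of-ratios scaling it was −0.05.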

How the results depend on the processing

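Of 828 values of single members under alternatives, 768 kept their direction and their call, 42 were newly called and 8 were no longer called. The newly called include unchanged values that are called only because 1 alternative drops the fold threshold, such as −0.34 for IL10RA in MM.1S TSW against MONO. The other 10 changed sign, and none of them was called. In MM.1S CO against TSW, leaving out a library took IL6ST (−0.05) from −0.16 to 0.02, IL2RG (0.04) from −0.00 to 0.09, and IL10RA (0.03) from −0.05 to 0.09. In RPMI8226 CO against TSW, IL10RB (−0.02) was −0.06 to 0.01 leaving out a library, 0.00 with median-of-ratios scaling and 0.05 with quantile normalisation, and IL15RA (−0.08) was 0.07 with the loess correction. In RPMI8226 TSW against MONO, IL6ST (0.08) was −0.15 to 0.32 leaving out a library. The cause of these sign changes and of each shift in counts was not tested, except that an RPKM minimum of 5 leaves out IL15RA in MM.1S and IL4R in RPMI8226. In MM.1S TSW against MONO, 1 member was called, and 4 with a pseudocount of 0.1, 4 with quantile normalisation, 4 with voom, 7 without the fold threshold, 0 with an RPKM minimum of 5, and 1 to 4 leaving out a library. In MM.1S CO against MONO, 1 was called, and 3 with a pseudocount of 0.1, 3 with voom, 5 without the fold threshold, 0 with an RPKM minimum of 5, median-of-ratios scaling or quantile normalisation, and 0 to 1 leaving out a library. In RPMI8226, 5 were called in TSW against MONO (5 to 6, and 4 to 5 leaving out a library) and 6 in CO against MONO (5 to 8, and 5 to 7). In CO against TSW, 0 were called by limma in RPMI8226, with 2 at an unadjusted p under 0.05, 0 by voom, 2 without the fold threshold, and 0 to 1 leaving out a library. The MM.1S count there was 0 in every alternative, with 1 member at an unadjusted p under 0.05. With the replicate block the counts of called members did not move. At any fold change IL10RA in MM.1S TSW against MONO passed 0.05, from 0.0422 to 0.0536 (0.0104 to 0.148 over its alternatives), and the adjusted p of IL6ST in RPMI8226 CO against TSW went from 0.0453 to 0.00255 (0.00255 to 0.446 over its alternatives). Correlations between libraries with the same replicate number ran from −0.380 to 0.286 in MM.1S and from 0.164 to 0.271 in RPMI8226, and whether the numbers pair cultures is not stated. Over all genes of RPMI8226 CO against TSW, 196 were called higher and 247 lower, and 261 and 176 with quantile normalisation. The loess used 98.8% of tested genes. Depth limits LIFR, OSMR and most ligands to read pairs.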

Other observations

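The pseudogene RPS14P3 had 1345 read pairs in MM.1S MONO 2 and 1472 and 1406 in the RPMI8226 TSW libraries, against 28 to 88 in every other library. In RPMI8226 that split follows TSW, so whatever sets these libraries apart and the TSW condition cannot be told apart.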
